A study of Mus musculus with 20 samples.

Results

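The 33 genes described here encode nuclear receptors that act in liver or kidney. They were chosen as a named list from known biology, with no measured value in the rule but with earlier results of these data known. All 33 were among the 57010 genes of the deposited table. The libraries came from 12-month-old male UM-HET3 mice, a genetically heterogeneous stock bred from several inbred strains, so that each mouse has its own genotype. In 6 mice a cocktail named 7c was infused for 28 days through osmotic minipumps placed under the skin, and 4 mice received the solvent alone (50% DMSO and 50% PEG300, here vehicle). The cocktail held repsox, tranylcypromine, DZNep, CHIR99021, forskolin and TTNPB at 0.1 mg/kg/day each and valproate at 1 mg/kg/day. Bulk polyA RNA was sequenced from the liver and the kidney, which gave 20 libraries, 6 7c and 4 vehicle in each tissue. All mice were of 1 sex and 1 age, and no untreated group without a pump was among the samples used here. The labels call the libraries biological replicates and number them within each tissue, and nothing in the labels says that a number marks the same mouse in both tissues.

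Nuclear receptors are transcription factors that carry a zinc-finger DNA-binding domain and a pocket for a small ligand, and they read the level of hormones, lipids and foreign compounds directly into transcription. Many of them, including LXR, FXR, PPAR, PXR, CAR and the thyroid hormone receptors, bind DNA as heterodimers with a retinoid X receptor (RXR). The liver uses this family to control bile acid, cholesterol, fatty acid and drug metabolism, and the kidney uses it for salt, phosphate and energy balance. In the cocktail, TTNPB is an agonist of the retinoic acid receptors, which also pair with RXR, and the other compounds act on TGF-beta signalling, histone modification, GSK3 and adenylate cyclase.

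Library totals were 28383359 to 34153084 counts in liver and 27855849 to 64872451 in kidney. Labelled tissues matched their markers: the summed level of 5 hepatocyte genes was 86308 to 123576 CPM (counts scaled to a fixed library size, the usual normalised read count) in the livers and 64.6 to 267 in the kidneys, while 5 proximal tubule genes summed to 27788 to 56954 CPM in the kidneys and 0.580 to 1.97 in the livers. One liver library, 7c replicate 6, held skeletal muscle transcripts at a summed 665 CPM over 5 genes, against at most 1.53 CPM in every vehicle liver. Among the vehicle kidneys replicate 2 stood apart, with a chi-square per gene of 124 to 199 against the others and 27.9 to 29.5 among these, while pairs of 7c kidneys had 31.2 to 246. Low counts were even more often than odd (77.2% of counts from 1 to 9), so 1 count may not be 1 molecule. In bulk tissue, fewer cells of a type and less RNA per cell cannot be told apart, which holds for every tissue difference given here.

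Per kilobase of transcript, the receptor pool of both tissues was led by Hnf4a (ENSMUSG00000017950), which encodes HNF4alpha, the receptor that maintains the hepatocyte and proximal tubule programmes. Its mean was 163 CPM per kb in liver and 184 CPM per kb in kidney, or 26.4% and 37.7% of the summed level of the 33 genes (618 and 488 CPM per kb). In liver the next levels were those of Rxra at 96.6 CPM per kb, the bile acid receptor FXR (Nr1h4) at 67.7, LXRalpha (Nr1h3) at 61.0 and PXR (Nr1i2) at 29.0. In kidney the order after Hnf4a was LXRbeta (Nr1h2) at 58.4 CPM per kb, Nr1h4 at 53.9, Rxra at 26.9 and Nr1h3 at 25.7. By this measure Rxra had rank 2 in liver and 4 in kidney, and Nr1h2 had rank 6 in liver and 2 in kidney. Divided by the length of all exons of a gene instead, a choice made after seeing the data, these 4 ranks stayed the same and Hnf4a held 34.5% in liver and 48.7% in kidney, while Nr1i2 came before Nr1h3 in liver and Nr2f6 took rank 5 in kidney. A minimum of 10 counts in 50% of the libraries was met by 28 of the 33 genes in liver and 31 in kidney. The ones below it in liver were Rorb, with 0 counts in all 10 livers, Esr2, Nr4a2, Nr4a3 and Hnf4g. Those below it in kidney were Esr2 and the CAR gene Nr1i3.

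**Figure D1:**
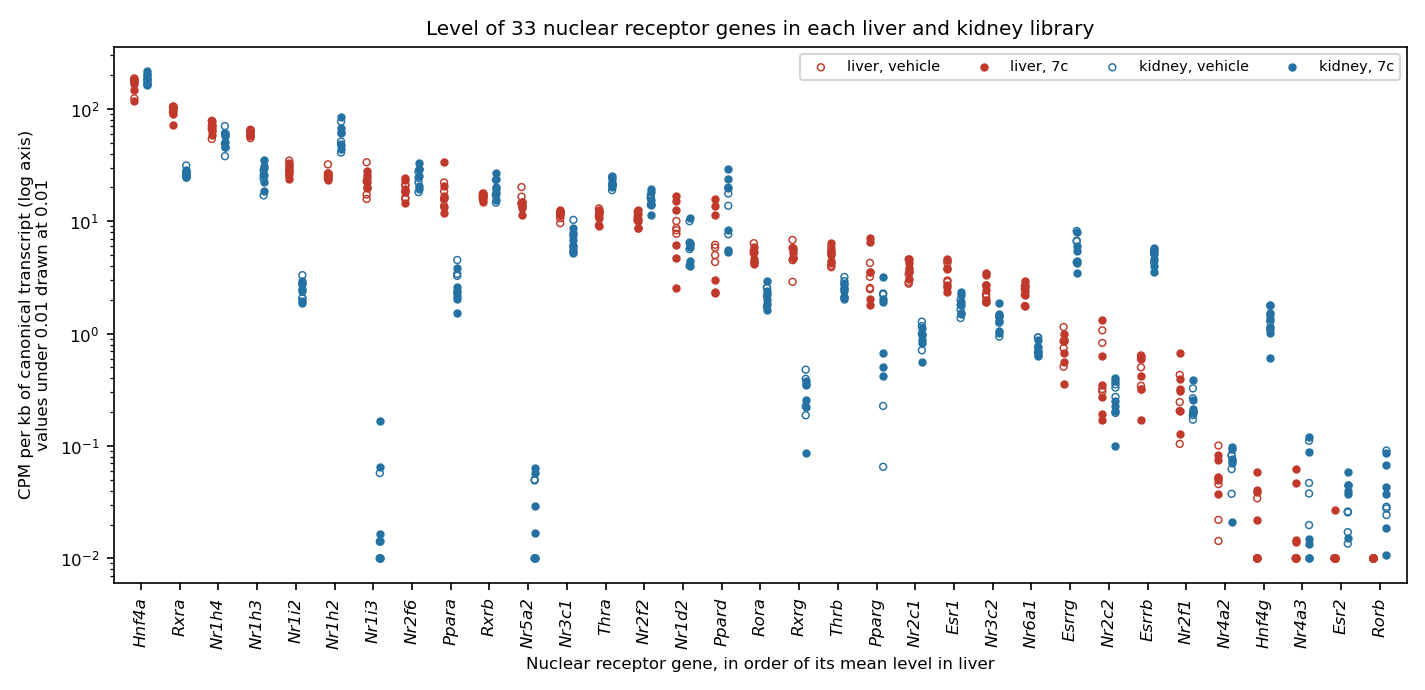
Level of the 33 receptor genes in each of the 20 libraries, in CPM per kb of the canonical transcript on a log axis, with liver in red, kidney in blue, vehicle as open and 7c as filled circles. Hnf4a is at the top in both tissues, while Nr1i3, Nr5a2 and Hnf4g each span a gap of over 10-fold between the tissues with no library in between.

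Liver and kidney were compared in the 4 vehicle mice and, in separate libraries, in the 6 7c mice, to show which receptors each tissue transcribes. Of 30 members tested in the vehicle mice, 22 passed an adjusted p of 0.05 (edgeR's quasi-likelihood test, Benjamini-Hochberg over all 17245 genes tested), 15 higher in liver and 7 higher in kidney. The background was high: 53.4% of all tested genes passed, 25.7% higher in liver and 27.7% higher in kidney. At a fold change of at least 2, the count was 15 members, 11 higher in liver and 4 in kidney, where 38.1% of all genes passed, 16.3% higher in liver and 21.8% in kidney. In the 7c mice 24 of 30 members passed, 16 higher in liver and 8 in kidney, against 65.7% of 17117 genes (30.9% and 34.8%). Of those, 16 members had a fold change of at least 2, 12 higher in liver and 4 in kidney, against 41.4% of all genes (17.3% and 24.1%). Nr1i3 and Hnf4g entered the fits only through the tissue where they are high, so their direction was set in advance. Nr1i3 had 5 counts over the 4 vehicle kidneys, and Hnf4g had 4 over the 4 vehicle livers. Both genes are in these counts of members. The median log2 difference of the members, liver over kidney, was 0.73 in vehicle and 0.87 in 7c mice, and the median of all genes was -0.06 and -0.08. These splits depend on the scaling between tissues. Without TMM (library totals alone), the median of all genes moved by -0.60 in vehicle and -0.63 in 7c mice, the calls over all genes went from 48.2% to 22.7% higher in liver in the vehicle mice and from 47.0% to 21.8% in the 7c mice, and the members split 10 to 10 and 11 to 11 (7 to 7 and 8 to 8 at 2-fold or more). In the vehicle mice, the 4 members at least 2-fold higher in kidney became 7 without the filter on low counts and 7 without the vehicle libraries numbered 4.

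**Figure D2:**
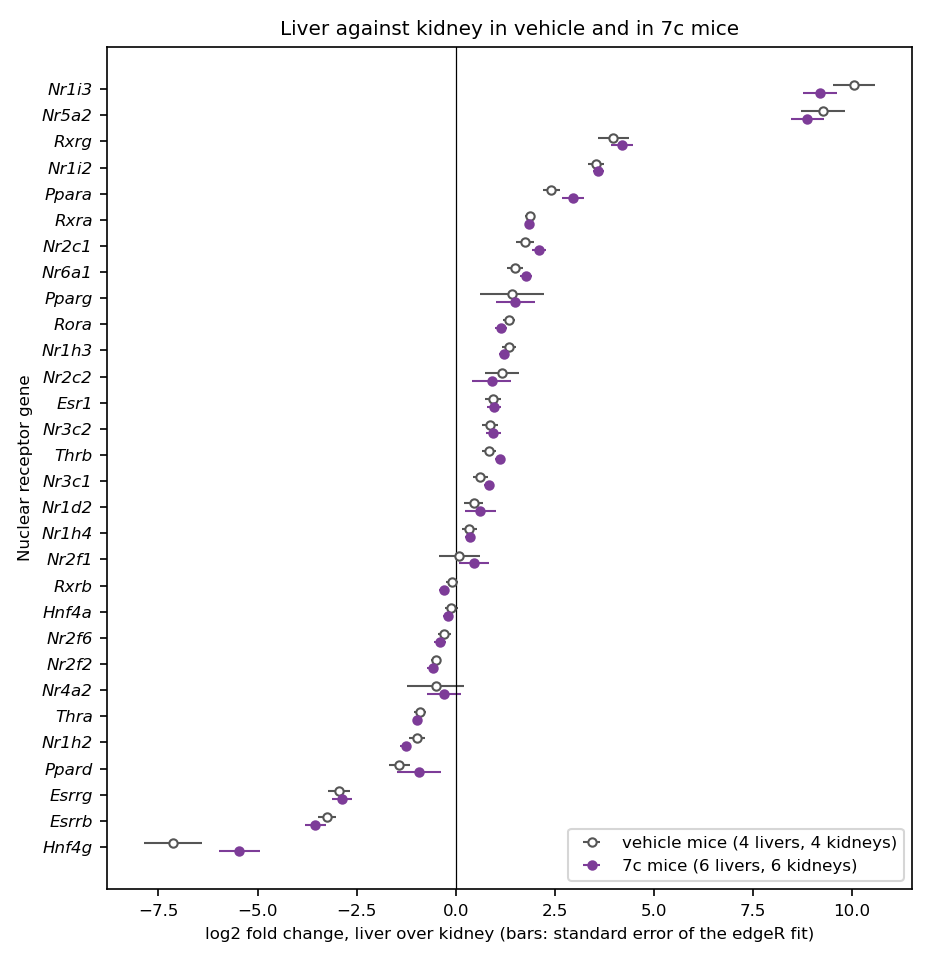
Fitted log2 fold change of liver over kidney for the 30 tested members, with open circles for the 4 vehicle mice, filled circles for the 6 7c mice and bars for the standard error. Members run from Nr1i3 and Nr5a2 on the liver side to Hnf4g on the kidney side, and the order is much alike in both groups of mice.

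The widest differences on the liver side were those of the xenobiotic receptor CAR and of LRH-1. Nr1i3, which encodes CAR, the receptor that turns on drug-metabolising genes when barbiturates and similar compounds reach the liver, lies at chr1:171041506-171048270 on the plus strand (GRCm39). Its level was 34.2, 50.4, 26.0 and 23.8 CPM in the 4 vehicle livers and 0.0212, 0, 0.0865 and 0 CPM in the vehicle kidneys. Over all 20 libraries the lowest liver was 94.6 times the highest kidney, from 8705 summed counts in liver and 22 in kidney. Nr5a2 encodes LRH-1, a receptor that works with HNF4alpha and FXR on bile acid genes. It measured 74.5, 104, 85.3 and 74.2 CPM in the vehicle livers and 0.255, 0, 0.259 and 0 CPM in the vehicle kidneys. For both genes the tissues were far apart in every library, and their kidney means were 0.146% and 0.181% of the liver means. The summed hepatocyte markers stood at 0.174% of their liver level in the kidneys, with Alb at 0.0254% and Ttr at 2.04%, and the part of liver transcripts in the kidney traces of Nr1i3 and Nr5a2 was not tested.

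PXR, the other xenobiotic receptor, was transcribed in both tissues. Nr1i2 was at 72.8, 65.6, 89.4 and 72.3 CPM in the vehicle livers and at 5.32, 8.56, 5.38 and 7.07 CPM in the vehicle kidneys. That is a log2 difference of 3.55 (SE 0.202, edgeR adjusted p = 8.06e-08), and the 7c mice gave 3.59 (SE 0.137, adjusted p = 3.35e-12). Kidney PXR was 8.50% of the liver mean, above the share of each of the 5 hepatocyte markers.

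Among the lipid sensors, paralogs went in opposite directions. Ppara encodes PPARalpha, the receptor that drives fatty acid oxidation in fasting. Vehicle livers held 48.7, 78.6, 65.7 and 55.6 CPM of Ppara and vehicle kidneys 11.6, 8.18, 16.0 and 12.1 CPM. The groups did not overlap, with a log2 difference of 2.41 (SE 0.220, adjusted p = 3.60e-06) in vehicle and 2.96 (SE 0.271, adjusted p = 1.15e-07) in 7c mice. Ppard, for the more widely expressed PPARdelta, was at 20.2, 16.4, 19.1 and 14.2 CPM in the vehicle livers and 65.2, 45.0, 25.1 and 57.9 CPM in the vehicle kidneys. It was thus higher in kidney by a log2 difference of -1.43 (liver over kidney, SE 0.264, adjusted p = 0.000838). In the 7c mice the value of -0.92 (SE 0.561) did not pass, at an adjusted p of 0.162, and the libraries spread more widely. It passed in 2 of 12 alternatives, which were the fit without TMM (-1.53, edgeR adjusted p = 0.0269) and the fit with the replicate number as a block (-1.07, edgeR adjusted p = 3.00e-05), and each of the 6 7c kidneys stood above the 7c liver of the same number. Pparg, the adipocyte regulator, was at 6.81 to 11.7 CPM in the vehicle livers and at 6.11, 0.179, 6.25 and 0.622 CPM in the vehicle kidneys, a difference that did not pass in the vehicle mice (1.42, SE 0.801, adjusted p = 0.160). Its vehicle livers and kidneys did not overlap, and it passed in 1 of 10 alternatives. Over the settings that kept all libraries, the difference ran from 0.78 to 2.45. In the 7c mice the difference of 1.50 (SE 0.493) passed, at an adjusted p of 0.0142.

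The LXR pair, which senses oxysterols and controls cholesterol efflux and lipogenesis, crossed over in the same way. Nr1h3 measured 116, 123, 138 and 121 CPM in the vehicle livers and 54.3, 60.2, 36.0 and 50.8 CPM in the vehicle kidneys. Its log2 difference was 1.34 (SE 0.167, adjusted p = 4.53e-05). Nr1h2 measured 50.5, 55.9, 53.2 and 67.3 CPM in the vehicle livers and 101, 162, 86.0 and 108 CPM in the vehicle kidneys, which is a difference of -0.98 (SE 0.202, adjusted p = 0.00176). No vehicle liver overlapped a vehicle kidney for either gene. The FXR gene Nr1h4 was close to equal: 164, 182, 125 and 154 CPM in the vehicle livers and 163, 87.8, 114 and 141 CPM in the vehicle kidneys. Its difference of 0.34 did not pass in vehicle mice (adjusted p = 0.156), while 0.35 passed in the 7c mice (SE 0.108, adjusted p = 0.0101), and both changed sign without TMM, to -0.27 and -0.29. The value of -0.29 was itself called, as higher in kidney (edgeR adjusted p = 0.0314).

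The RXR partners were also unequal. Rxra was at 572, 552, 509 and 519 CPM in the vehicle livers and 142, 139, 149 and 172 CPM in the vehicle kidneys, a log2 difference of 1.88 (SE 0.130, adjusted p = 3.98e-07). Rxrb was at 41.6 to 46.5 CPM in the vehicle livers and 38.7 to 61.7 CPM in the vehicle kidneys, and did not pass there. In the 7c mice Rxrb was called higher in kidney by a small margin (-0.30, adjusted p = 0.0393), a call that was lost in 8 of 12 alternatives. Rxrg, the least abundant of the 3 in both tissues, was at 6.53, 10.2, 15.4 and 13.1 CPM in the vehicle livers and 0.424, 0.894, 1.08 and 0.509 CPM in the vehicle kidneys, which gave a log2 difference of 3.98 (SE 0.395, adjusted p = 7.25e-06).

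On the kidney side, the HNF4 paralogs lay far apart. Hnf4a did not pass the test between the tissues: 821, 774, 808 and 546 CPM in the vehicle livers, 870.4, 767, 808 and 812 CPM in the vehicle kidneys, log2 difference -0.11 (SE 0.157, adjusted p = 0.598). Without TMM it was called higher in kidney, at -0.72 in vehicle mice (edgeR adjusted p = 0.00175) and at -0.81 in 7c mice (adjusted p = 3.31e-05). Its paralog Hnf4g, best known from the gut and kidney, was at 0, 0, 0 and 0.140 CPM in the vehicle livers and 7.21, 5.21, 5.92 and 4.41 CPM in the vehicle kidneys. Over all mice, the lowest kidney of Hnf4g was 10.3 times the highest liver, from 2555 summed counts in kidney and 20 in liver. The estrogen-related receptors, orphan receptors that work with PGC-1alpha on mitochondrial genes, were next among the tested members. Esrrb was at 23.1, 22.1, 21.9 and 18.1 CPM in the vehicle kidneys and 1.44, 2.69, 2.11 and 2.51 CPM in the vehicle livers (log2 difference -3.24, SE 0.223, adjusted p = 3.73e-07). Esrrg was at 35.2, 22.8, 43.3 and 35.5 CPM in the vehicle kidneys and 2.68, 3.92, 6.06 and 4.54 CPM in the vehicle livers (-2.95, SE 0.272, adjusted p = 3.97e-06). Rorb, a ROR paralog, had 202 counts over the 10 kidneys and 0 over the 10 livers, which put the kidneys at least 34.3-fold higher against a floor of 3 counts over the liver group. If each molecule gave 2 counts, as the excess of even counts leaves possible, the floor would be 6 counts and the bound 17.2-fold.

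The thyroid hormone, corticosteroid and estrogen receptor genes that were tested differed by less than 2-fold between the vehicle tissues. Thra, for the thyroid hormone receptor alpha, was higher in kidney (22.0, 31.0, 27.3 and 26.2 CPM in the vehicle livers, 45.1, 50.5, 49.3 and 59.0 CPM in the vehicle kidneys). The log2 difference was -0.90 (SE 0.145, adjusted p = 0.000313). Its exons overlap Nr1d1 on the opposite strand over 21.4% of their length. Thrb, the beta form that mediates most thyroid hormone effects on hepatic lipids, went the other way, from 31.2 to 47.0 CPM in the vehicle livers and 16.9 to 25.5 CPM in the vehicle kidneys (0.83, SE 0.179, adjusted p = 0.00229). The glucocorticoid receptor gene Nr3c1 was at 62.3 to 78.1 CPM in the vehicle livers and 34.6 to 66.6 CPM in the vehicle kidneys (0.62, SE 0.193, adjusted p = 0.0179), and its groups overlapped. The mineralocorticoid receptor gene Nr3c2, whose product sets sodium uptake in the distal nephron, was at 11.4 to 16.2 CPM in whole vehicle liver and 5.68 to 8.77 CPM in whole vehicle kidney (0.87, SE 0.196, adjusted p = 0.00299). The estrogen receptor gene Esr1 was at 16.1 to 26.6 CPM in the vehicle livers and 8.60 to 12.4 CPM in the vehicle kidneys (0.94, SE 0.199, adjusted p = 0.00203). In the vehicle mice, the calls of Thrb, Nr3c1, Nr3c2 and Esr1 were lost without TMM. Of the orphan receptors and COUP-TF genes, Nr2c1, Nr6a1 and Rora were higher in liver with log2 differences of 1.75, 1.51 and 1.35, and Nr2f2 was higher in kidney with -0.50 (SE 0.119, adjusted p = 0.00437).

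The calls of the 2 groups of mice could be set side by side. Of the 30 tested members, 14 were called higher in liver and 6 higher in kidney in both, where 25.1% and 26.7% of the 16636 genes tested in both were (51.8% in all). Ppard (kidney) and Nr2c2 (liver, a call lost in 6 of 10 alternatives) were called in vehicle mice alone, Nr1h4 and Pparg (liver) and Rxrb and Nr2f6 (kidney) in 7c mice alone, and Nr1d2, Nr2f1, Hnf4a and Nr4a2 in neither. Whether those 6 differed between the groups was tested by the treatment by tissue interaction, which passed for no member. The overlap of exons with a gene on the opposite strand is large for Nr1i3 (75.4%, with Tomm40l), Nr2f6 (57.1%, with Ocel1) and Nr2c2 (40.4%, with Mrps25). For Ppara it is 27.4%, with Cdpf1. The strand setting of the counting is not given in the sources used here.

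Expressed as shares of each family's summed CPM per kb, the make-up of several families was unlike between the tissues. Nr1h3 made up 70.1% ± 2.44 (SD, n = 10 libraries) of the LXR sum in liver and 30.7% ± 2.52 in kidney, with Nr1h2 as the remainder. Ppara made up 63.2% ± 13.0 of the PPAR sum in liver and 17.2% ± 10.4 in kidney, where Ppard held 74.0% ± 15.0. Rxra made up 81.6% ± 2.00 of the RXR sum in liver and 57.8% ± 5.52 in kidney, where Rxrb held 41.5% ± 5.58. CAR accounted for 43.9% ± 7.22 of the PXR and CAR sum in liver and 1.34% ± 1.86 in kidney. Hnf4a held at least 98.9% of the HNF4 sum in every library, and Thra held 69.4% ± 3.89 of the thyroid hormone receptor sum in liver and 89.6% ± 1.93 in kidney. The lead of Thra in liver turned with the length used: per kb of all exons Thra held 44.2% ± 4.42 there, below Thrb, and 75.0% ± 3.84 in kidney. By that length CAR held 21.3% ± 4.99 of its sum in liver, and the leading gene of the other families was the same in each tissue. The difference between the paralogs' log2 tissue differences in vehicle mice was 4.07 for RXR, 3.84 for PPAR, 2.32 for LXR and 1.73 for the thyroid hormone receptors. For HNF4 and for PXR and CAR it rests on the few counts of Hnf4g in liver and of Nr1i3 in kidney and is not given.

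**Figure D3:**
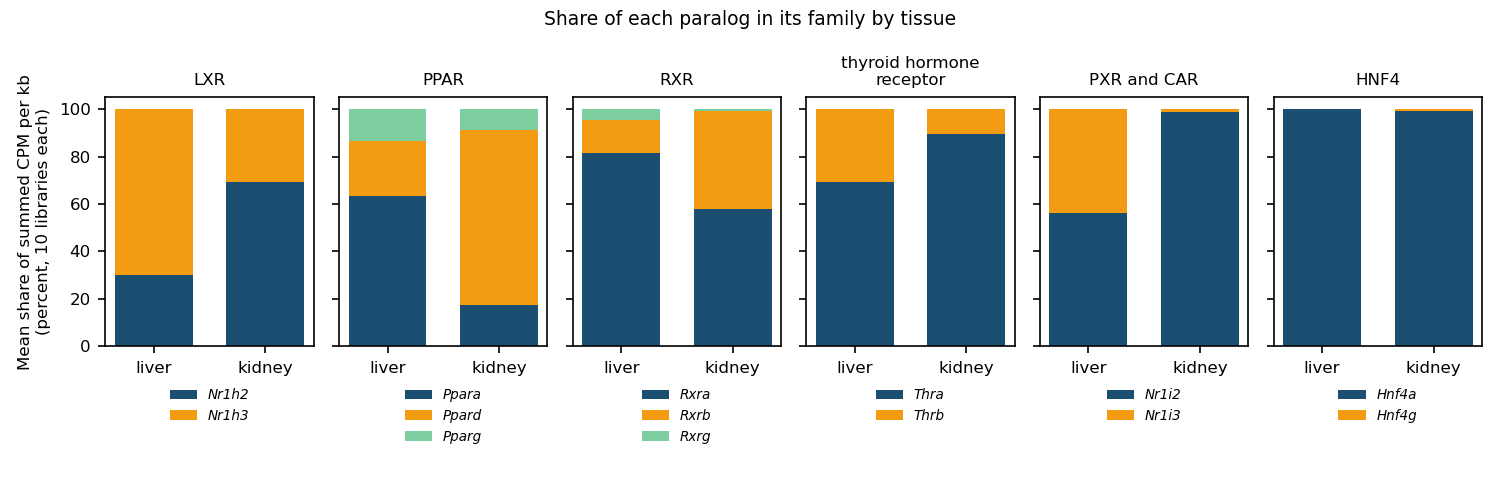
Mean share, in percent over 10 libraries per tissue, of each paralog in the summed CPM per kb of its family, as stacked bars for liver and kidney. The leading gene changes from Nr1h3 to Nr1h2 for LXR and from Ppara to Ppard for PPAR, whereas Rxra, Nr1i2 and Hnf4a lead their families in both tissues. Thra leads Thrb in liver per kb of the canonical transcript shown here, and not per kb of all exons (44.2%).

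The start sites of the paralogs whose levels diverged most were compared by sequence. The window was the 250 bases before the GENCODE canonical start in GRCm39, and over 14757 protein-coding genes tested it held a median of 11 CpG sites (10th to 90th percentile 2 to 25). The parts of these windows that hold no annotated exon are printed below for the HNF4 and xenobiotic pairs, for Rxrg and Rxrb, the RXR genes furthest apart in tissue difference, and for Ppard, 5′ to 3′ on the strand of the gene, with each CpG in capitals. Ppara is not printed because exons of other transcripts cover most of its window.
Hnf4a, chr2:163388863-163389068, plus strand: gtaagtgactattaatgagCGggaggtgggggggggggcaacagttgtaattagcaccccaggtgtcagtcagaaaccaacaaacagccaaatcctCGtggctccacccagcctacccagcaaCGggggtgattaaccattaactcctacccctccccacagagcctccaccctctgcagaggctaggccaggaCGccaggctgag
Hnf4g, chr3:3698955-3699204, plus strand: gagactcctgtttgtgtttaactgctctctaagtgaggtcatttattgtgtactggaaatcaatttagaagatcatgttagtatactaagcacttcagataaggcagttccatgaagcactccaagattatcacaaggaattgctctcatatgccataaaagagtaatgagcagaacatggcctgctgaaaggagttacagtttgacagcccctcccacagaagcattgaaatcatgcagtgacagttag
Nr1i3, chr1:171041289-171041505, plus strand: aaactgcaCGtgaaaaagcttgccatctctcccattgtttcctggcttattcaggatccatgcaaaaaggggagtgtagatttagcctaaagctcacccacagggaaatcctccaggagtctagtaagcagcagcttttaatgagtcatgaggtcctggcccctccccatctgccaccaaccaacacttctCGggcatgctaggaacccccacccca
Nr1i2, chr16:38115217-38115466, minus strand: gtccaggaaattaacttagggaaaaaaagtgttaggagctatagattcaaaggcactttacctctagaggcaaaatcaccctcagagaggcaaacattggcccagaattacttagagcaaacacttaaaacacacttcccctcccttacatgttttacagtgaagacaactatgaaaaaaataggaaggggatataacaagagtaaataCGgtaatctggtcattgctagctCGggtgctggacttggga
Rxrg, chr1:167425554-167425672, plus strand: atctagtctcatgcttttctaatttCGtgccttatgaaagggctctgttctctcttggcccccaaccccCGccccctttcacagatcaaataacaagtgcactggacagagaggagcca
Rxrb, chr17:34250657-34250758, plus strand: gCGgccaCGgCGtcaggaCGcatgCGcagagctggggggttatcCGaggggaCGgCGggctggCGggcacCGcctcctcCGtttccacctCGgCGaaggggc
Ppard, chr17:28451424-28451673, plus strand: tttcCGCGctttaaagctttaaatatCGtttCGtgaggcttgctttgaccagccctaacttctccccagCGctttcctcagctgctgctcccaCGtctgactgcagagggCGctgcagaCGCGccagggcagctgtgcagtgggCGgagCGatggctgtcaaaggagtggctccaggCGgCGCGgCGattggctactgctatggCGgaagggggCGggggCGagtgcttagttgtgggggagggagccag
The whole 250-base windows held 4 CpG sites for Hnf4a and 0 for Hnf4g, 2 for Nr1i3 and 2 for Nr1i2, 4 for Rxrg, 30 for Rxrb and 23 for Rxra, and 38 for Ppara and 18 for Ppard. The HNF1 half-site GTTAAT, searched on both strands, was found in 4 members, and in 5.06% of all windows. Hnf4a held 2 copies on the minus strand, 75 and 68 bases before its start, which read attaac in the printed stretch. The receptor half-site AGGTCA was found in 5 members (Hnf4g, Nr1d2, Nr1h4, Nr2f6 and Nr6a1) and in 12.2% of all windows, and a direct repeat of it with 1 base between was found in no member and in 0.0339% of windows. The E-box CACGTG, bound by CLOCK and BMAL1, was found in 3 members (Esr2, Nr1i3 and Thrb) and in 7.35% of windows.

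A further question was whether 28 days of 7c changed the receptors themselves. In liver, 0 of 28 members tested passed an adjusted p of 0.05 (edgeR's quasi-likelihood test), where 0.00666% of 15012 genes did, and DESeq2, limma-voom and edgeR's likelihood ratio test also gave 0 members. At an unadjusted p of 0.05, 2 members passed, against 3.76% of all genes. These were Nr5a2, with 74.5, 104, 85.3 and 74.2 CPM in the vehicle livers and 58.3 to 77.0 CPM in the 7c livers (median 71.0), and Rora, with 56.8 to 70.3 CPM in the vehicle livers and 45.7 to 64.7 CPM in the 7c livers (median 49.4). Their log2 differences, 7c over vehicle, were -0.29 (SE 0.106) and -0.25 (SE 0.115), both with an edgeR adjusted p of 1.00. The next smallest p belonged to Nr3c1, with 62.3 to 78.1 CPM in the vehicle and 73.8 to 82.1 CPM in the 7c livers (0.11, SE 0.0864, adjusted p = 1.00). For all of these the vehicle and 7c libraries overlapped. Fold changes over the 28 members ran from -0.40 (Nr2c2) to 0.58 (Ppard) with a median of 0.03, where the median of all genes was 0.00, and the median SE was 0.153. Nr2c2 had the largest SE (0.564), and 27 of the 28 values lay within 0.5 of 0.

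In kidney, 0 of 31 members passed (0.0% of 17749 genes did), 0 members had an unadjusted p under 0.05 (2.61% of all genes did), and DESeq2, limma-voom and the likelihood ratio test also gave 0 members. The smallest p belonged to Ppara, with 11.6, 8.18, 16.0 and 12.1 CPM in the vehicle kidneys and 5.40 to 13.5 CPM in the 7c kidneys (median 8.09). Its log2 difference was -0.49 (SE 0.241, edgeR adjusted p = 0.997), and 1 of the 6 7c kidneys stood above 3 of the 4 vehicle kidneys. Thrb followed at -0.22 (SE 0.136, edgeR adjusted p = 0.997), from 16.9 to 25.5 CPM in vehicle to 16.1 to 22.1 CPM in 7c kidneys, and then Esrrg at -0.30 (SE 0.225, adjusted p = 0.997), from 22.8 to 43.3 CPM to 18.4 to 42.2 CPM. The 31 fold changes ran from -0.49 (Ppara) to 0.26 (Pparg) with a median of -0.05. These kidney counts moved with the libraries and settings of the fit. Without vehicle replicate 2, Ppara (-0.63, SE 0.239) and Thrb (-0.32, SE 0.124) stood under an unadjusted p of 0.05, each with an edgeR adjusted p of 0.476, and so did 10.3% of all genes. Ppara did so as well without 7c replicate 6 (-0.67, SE 0.206, edgeR adjusted p = 0.961), with the replicate number as a block (-0.55) and without the filter on low counts (-0.48), and Esrrg did so without 7c replicate 3 (-0.46, SE 0.197, edgeR adjusted p = 0.860). Here too the block joins 7c and vehicle mice of the same number, which are different mice, so it reflects no pairing of the design. In neither tissue did the vehicle and 7c libraries of any member separate without overlap, where 0.659% of all genes in liver and 0.721% in kidney did. The interaction of treatment and tissue passed for 0 of 27 members (0.00706% of 14163 genes, edgeR; 0 members by DESeq2 and limma-voom), and no member had an unadjusted p under 0.05, where 2.49% of all genes did. Without the vehicle libraries numbered 2, 4 members did (Nr1h2, Nr2c1, Ppara and Thrb), with 6.08% of all genes and a smallest edgeR adjusted p of 0.762 among the members, and without the 7c libraries numbered 6 Ppara alone did.

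**Figure D4:**
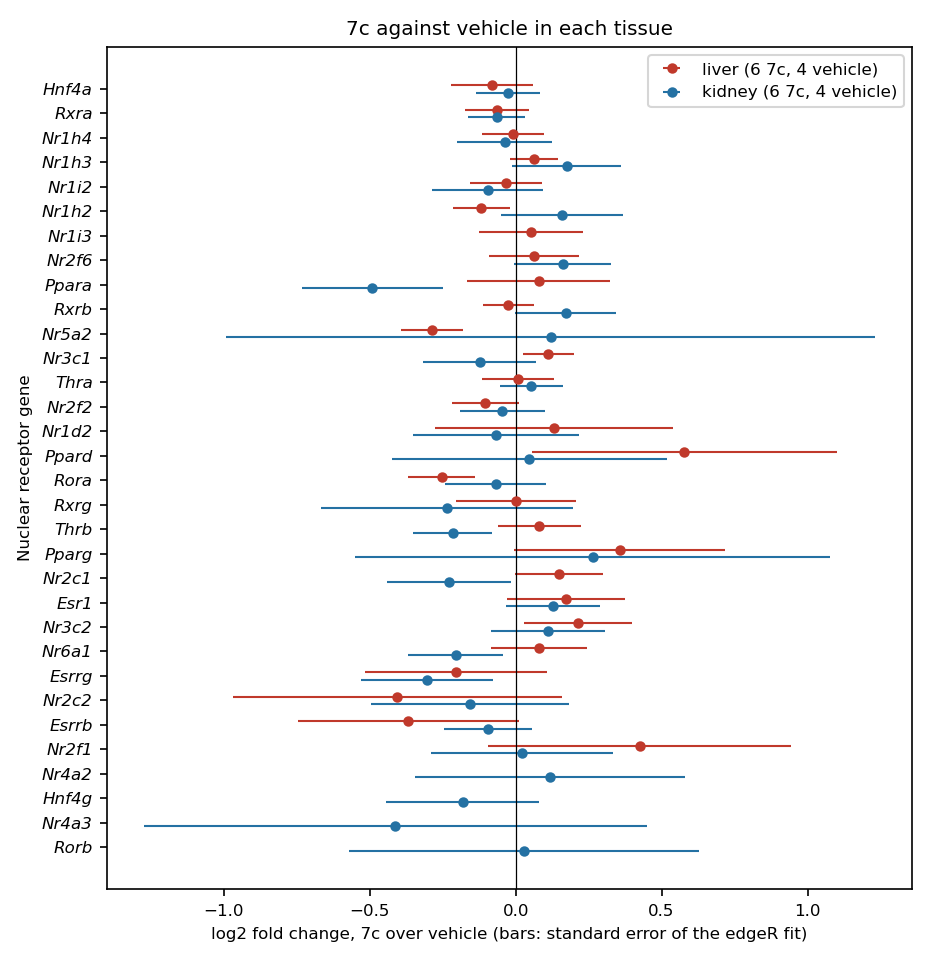
Fitted log2 fold change of 7c over vehicle for the members tested in liver (red, 28 genes) and kidney (blue, 31 genes), with bars for the standard error. Most points lie within 0.5 of 0, and wide bars mark genes with large spread between mice, such as Ppard and Nr2c2 in liver, or with few counts, such as Nr5a2 in kidney.

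The wider pathway was described by lists. Of 16 other nuclear receptors, among them the retinoic acid receptors that TTNPB binds, 10 were tested in each tissue and 0 passed for 7c in either, with 0 at an unadjusted p under 0.05 in the edgeR fits. Between the tissues of the vehicle mice, 7 of the 11 tested passed, 3 higher in liver and 4 in kidney, a share not far from the 53.4% of all genes. In the 7c mice 10 of 11 passed, 4 higher in liver and 6 in kidney, where 65.7% of all genes did. The vitamin D receptor gene Vdr was at 240.03 to 317 CPM in the vehicle kidneys and 0 to 0.489 in the livers. Nr0b2, for the corepressor SHP that FXR induces, was at 32.5 to 82.4 CPM in the vehicle livers and 1.10 to 2.21 CPM in the kidneys. Nr1h5 was at 3.32 to 8.68 CPM in the vehicle livers and at 0 counts in every kidney. Of 14 coregulators, 3 passed between tissues (1 higher in liver), 0 passed for 7c, and 0 had an unadjusted p under 0.05 for 7c in either tissue. Ppargc1a, for the coactivator PGC-1alpha, was higher in kidney (29.3 to 39.1 CPM against 6.17 to 10.5 CPM in the vehicle livers, log2 -2.11, SE 0.190, adjusted p = 3.38e-06), in the same direction as its partners Esrrb and Esrrg.

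The median log2 difference between the vehicle tissues was 0.18 for the other receptors and -0.14 for the coregulators, and that of the 7c mice was -0.56 and -0.07. For the target lists it was 9.39 for FXR, 3.28 for LXR, 2.95 for CAR and PXR, 1.34 for PPARalpha, 0.66 for glucocorticoid, 0.28 for thyroid hormone and -0.996 for mineralocorticoid targets, and it was 1.44 for the immediate early genes and -0.96 for the clock genes, beside -0.06 over all genes. Only 4 of the 7 FXR targets passed the count filter in the kidney fit, so the size of 9.39 rests partly on few kidney counts. In the 7c mice the immediate early genes had a median of 0.60 and the clock genes of -0.18, beside -0.08.

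The counts of this paragraph stand beside the 53.4% of all genes that passed, and those of the CAR and PXR, thyroid hormone, glucocorticoid and immediate early lists lay near it. Of the 7 FXR targets, 7 passed between the vehicle tissues, 5 higher in liver, although Nr1h4 itself was near equal. Abcb11, the bile salt export pump, was at 756 to 1078 CPM in the vehicle livers and 0.134 to 0.509 CPM in the kidneys, and Cyp7a1, the rate-limiting enzyme of bile acid synthesis, at 92.6 to 128 CPM and at most 0.0894 CPM. Of the CAR and PXR targets 5 of 8 passed (4 higher in liver), with Cyp3a11 at 3854 to 6761 CPM in the vehicle livers and 1.30 to 2.32 CPM in the kidneys. Of the LXR targets 6 of 8 passed (5 higher in liver), including the sterol exporter gene Abcg8. Of the PPARalpha targets 8 of 12 passed (6 higher in liver). Among the targets of hormone receptors, 3 of 6 thyroid hormone, 5 of 8 glucocorticoid and 4 of 5 mineralocorticoid genes passed. The epithelial sodium channel genes Scnn1b and Scnn1g, of the mineralocorticoid list, had 0 counts in every liver and 32.98 to 42.5 and 13.1 to 31.8 CPM in the vehicle kidneys, opposite in direction to Nr3c2. Of 6 immediate early genes, 3 passed, all higher in liver.

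For 7c, medians of the target lists lay between -0.25 and 0.23 in the livers, and in the kidneys between -0.08 and 0.14. The immediate early genes had a median of -0.65 in liver, with 0 of 5 tested above 0, and of 0.02 in kidney, and the clock genes of 0.38 and 0.18. No target list had a gene that passed for 7c in either tissue by edgeR's quasi-likelihood test, and a few genes per tissue stood below 0.05 before adjustment, where 3.76% of all genes did in liver and 2.61% in kidney. Those of the livers were Alas1, the first enzyme of haem synthesis (log2 1.65, SE 0.565), Por (0.33, SE 0.142), Fkbp5 (0.45, SE 0.174), Thrsp (0.74, SE 0.335) and Cyp8b1 (-0.30, SE 0.135), each with an edgeR adjusted p of 1.00. In kidney the smallest belonged to Thrsp, a lipogenic gene responsive to thyroid hormone, which was at 1.36 to 3.10 CPM in the vehicle and 4.29 to 24.0 CPM in the 7c kidneys (2.44, SE 0.494, edgeR adjusted p = 0.671). The call of Thrsp in kidney depended on the test: it passed with DESeq2 (2.45, adjusted p = 6.41e-05), with edgeR's likelihood ratio test (2.44, adjusted p = 0.00211) and with both tissues in 1 edgeR fit (2.45, adjusted p = 0.0430), and did not pass in the other 16 alternatives. Of those 16, limma-voom was the only other test, and the rest were reruns of the quasi-likelihood test. Scd1, a lipogenic LXR target, followed with 45.8 to 85.1 CPM in the vehicle and 87.7 to 292 CPM in the 7c kidneys (1.15, SE 0.317, edgeR adjusted p = 0.997). Both ranges were free of overlap. Of the CAR and PXR targets, 3 of 7 tested stood below 0.05 before adjustment in kidney, each with an edgeR adjusted p of 0.997: Cyp3a11 (-2.21, SE 0.735), Gadd45b (0.54, SE 0.196) and Alas1 (0.38, SE 0.172). Cyp3a11 was at 1.30 to 2.32 CPM in the vehicle and 0 to 1.12 CPM in the 7c kidneys. The 5 hepatocyte genes were lower in the 7c kidneys by a median of -1.08, with 3 of 5 at an unadjusted p under 0.05 and none by the adjusted p. Their summed level was 166 to 237 CPM in the vehicle and 64.6 to 267 CPM in the 7c kidneys, and their part in the value of Cyp3a11 was not tested. Among the immediate early genes of the kidneys, 1 of 6, Atf3, stood below 0.05 before adjustment (1.17, SE 0.367, edgeR adjusted p = 0.997).

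The 5 adipocyte genes had higher levels in the 7c kidneys, each at an unadjusted p under 0.05 and none by the adjusted p of the quasi-likelihood test. In the study's own edgeR analysis the adipocyte gene Cidec was called in kidney. The summed levels of the 5 genes were 2.80, 0.492, 4.04 and 6.62 CPM in the vehicle kidneys and 5.92 to 31.7 CPM in the 7c kidneys (median 17.3). Their part in the values of Thrsp, Scd1 and Pparg was not tested. Pparg itself was at 6.11, 0.179, 6.25 and 0.622 CPM in the vehicle and 1.16 to 8.80 CPM (median 3.55) in the 7c kidneys.

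A pair of receptors spread far more among the 7c livers than among the vehicle livers, and they were singled out after their values were seen. Ppard in the 6 7c livers, from replicate 1 to replicate 6, was at 37.5, 51.7, 44.4, 9.76, 7.67 and 7.51 CPM, so that 3 livers lay above and 3 below every vehicle liver (14.2 to 20.2 CPM). In the 7c kidneys with the same numbers it was at 64.9, 96.4, 77.8, 27.6, 18.2 and 17.6 CPM, with the vehicle kidneys at 25.1 to 65.2 CPM. Nr1d2 encodes REV-ERBbeta, a haem-binding repressor that feeds back on the circadian clock. It went the other way in liver, low in replicates 1 to 3 and high in replicates 4 to 6, at 35.1, 26.6, 14.5, 72.1, 86.2 and 95.7 CPM, and its vehicle livers again lay in between at 43.8 to 56.9 CPM. In the 7c kidneys Nr1d2 was at 22.9, 24.9, 33.6, 36.4, 35.5 and 60.0 CPM, and in the vehicle kidneys at 22.8 to 56.8 CPM.

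Dbp and Bmal1, named from the 11 listed clock genes after their values were seen, also set 7c replicates 1 to 3 apart from 4 to 6. Dbp had the lower and Bmal1 the higher levels in replicates 1 to 3. Of the other listed clock genes, Clock and Ciart overlapped between these sets in the 7c livers and the rest did not. The split itself was not tested. Dbp, a transcription factor under direct control of the clock, was at 2.61, 1.20, 0.319, 29.7, 57.7 and 115 CPM in the 7c livers and at 4.23 to 6.25 CPM in the vehicle livers. The core clock gene Bmal1 was at 39.6, 43.9, 48.0, 23.0, 13.9 and 6.12 CPM in the 7c livers and at 31.3 to 43.7 CPM in the vehicle livers. In the 7c kidneys Dbp was at 13.4, 9.62, 5.23, 76.8, 93.3 and 93.6 CPM and Bmal1 at 17.9, 21.1, 22.4, 2.59, 2.54 and 2.03 CPM. The labels give no time of day for tissue collection, and the part of clock phase in the spread of Ppard and Nr1d2 was not tested. Of 11 clock genes, 9 passed between the tissues of the vehicle mice and 0 for 7c in either tissue, with 3 in liver and 0 in kidney at an unadjusted p under 0.05 in the edgeR fit, beside 53.4% of all genes between the tissues and 3.76% and 2.61% at that unadjusted p. Between the tissues of the 7c mice 5 of 11 clock genes passed, where 65.7% of all genes did.

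**Figure D5:**
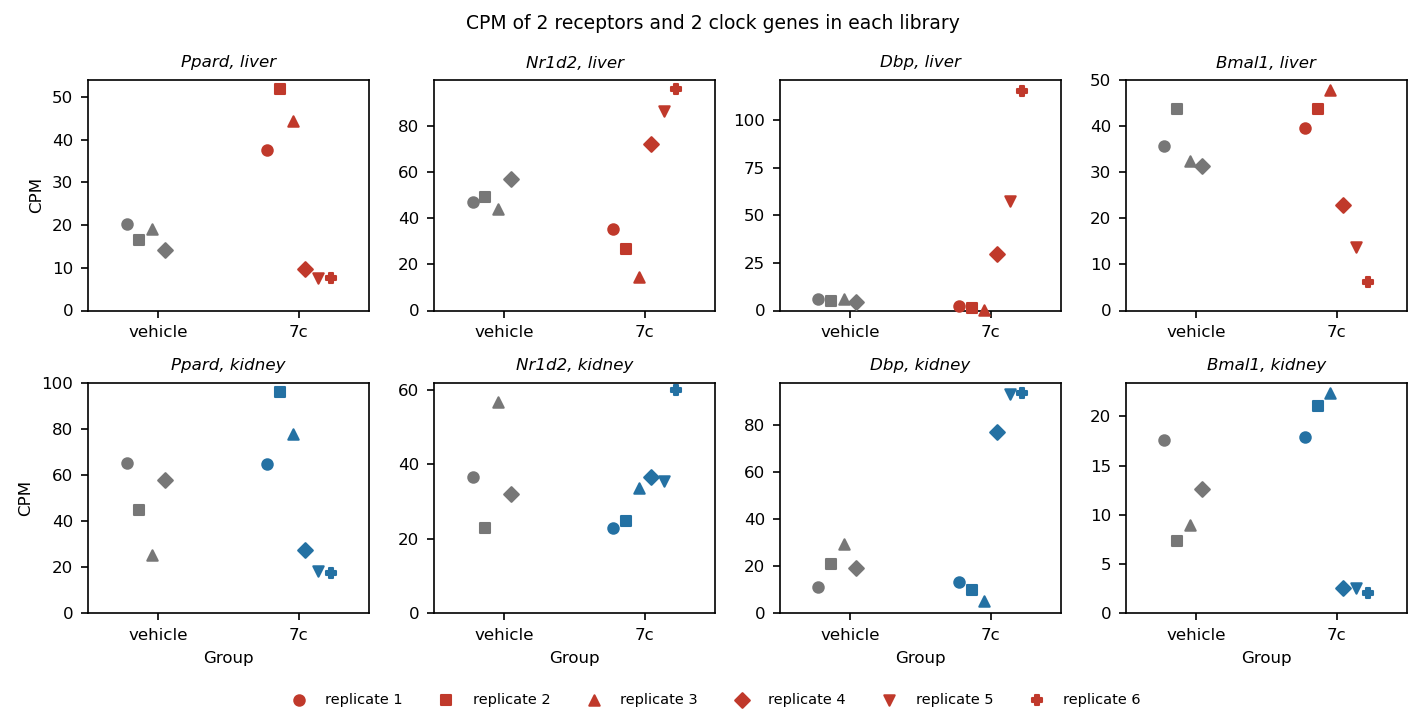
CPM of the receptors Ppard and Nr1d2 and of the clock genes Dbp and Bmal1 in each library, liver in the upper and kidney in the lower panels, with vehicle in grey, 7c in colour and 1 marker shape per replicate number. In the 7c livers replicates 1 to 3 and 4 to 6 stand apart for Ppard (37.5 to 51.7 against 7.51 to 9.76 CPM) and for Nr1d2 (14.5 to 35.1 against 72.1 to 95.7 CPM), with the vehicle livers in between.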

How the data were processed

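The deposited values were counts, whole numbers of reads per gene for all 20 libraries in 1 table. Per the labels, libraries were stranded and polyA-selected, and the submitters' processing notes name STAR 2.7.11b, featureCounts 2.0.6 and GRCm39; the strand setting of the counting is not given in the sources used here. Of the deposited genes, 56310 matched GENCODE M39 and 700 did not (0.0417% of counts).

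A gene entered a fit when 50% or more of its libraries held 10 or more counts, and was tested with edgeR 4.0.16 (TMM, quasi-likelihood F-test) in R 4.3.3, with Benjamini-Hochberg adjustment over all genes tested and a threshold of 0.05. Each tissue was fitted apart for 7c against vehicle, and each treatment apart for liver against kidney. Printed CPM values use TMM over the 20 libraries, and CPM per kb the length of the canonical transcript. Alternatives used DESeq2 1.42.0, the likelihood ratio test of edgeR, voom from limma 3.58.1, other filters and scalings, a replicate block and fits without each replicate number. The scripts were tested on simulated counts. A floor of 3 counts covers counting error only.

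The members and gene lists were chosen with earlier results of these data known. All 33 members are given by level. A 7c fold change is given for members with an unadjusted p under 0.05 or no overlap between groups, or else the 3 of smallest p per tissue, and from each list at most 3 genes of smallest p per comparison are named. Ppard, Nr1d2, Dbp and Bmal1 by library, and Pparg, Nr2c2 and the marker genes, were named outside that rule. Protein sequences were not used here.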

Additional observations from a re-analysis of the deposited data

Results flagged for a closer look

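Of 118 sets of 4 to 6 libraries (1 member in 1 group), 4 held a library whose gap to the others was above the 95% critical value of Dixon's test, a rate that chance gives in about 1 in 20 sets. In the 7c kidneys, replicate 6 was highest for Nr1d2, at 60.0 CPM with the others at 22.9 to 36.4 CPM, and for the COUP-TF gene Nr2f1, at 1.51 CPM with the others at 0.763 to 1.01 CPM. Replicate 5 of the 7c kidneys was lowest for the immediate early receptor gene Nr4a2, at 0.101 CPM with the others at 0.339 to 0.464 CPM. Replicate 1 of the vehicle kidneys was highest for Rorb, at 0.848 CPM with the others at 0.226 to 0.268 CPM. None of these genes was called for 7c where it was tested, and Nr4a2 and Rorb were below the filter in liver. No cause was tested.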

How the results depend on the processing

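The counts of called members kept within 1.5 times their reported value under each alternative run, except for members at least 2-fold apart. Of these, the vehicle mice had 7 higher in liver and 7 in kidney without TMM and 7 in kidney without the filter. The 7c mice had 8 in kidney without TMM. With 1 vehicle replicate number left out, 4 to 7 (without replicate 4) were at least 2-fold higher in kidney. No member was called for 7c under any alternative, including the library-total scaling, which was chosen after seeing the data. None was called for the interaction under those run for it (RLE size factors, DESeq2, limma-voom, the replicate block and leaving out each replicate number). With 1 replicate number left out, members called between the tissues numbered 21 to 22 of the vehicle and 21 to 24 of the 7c mice. Single genes between the tissues of the vehicle mice kept direction and call in 273 of their alternatives, lost the call in 13, gained it in 5 and changed sign in 8, and those of the 7c mice in 334, 18, 4 and 3. Without TMM the log2 difference changed sign for Nr1h4 (-0.27 in vehicle, -0.29 in 7c mice), Nr2f1 (-0.52, -0.17) and Nr1d2 (-0.17, -0.024). Nr2f1 in vehicle mice also changed sign with limma-voom (-0.059) and with the replicate block (-0.029). Leaving out 1 vehicle replicate number gave -0.43 (without replicate 4) to 0.40 for Nr2f1 and -0.22 to 0.0049 (without replicate 4) for Hnf4a. The cause was not tested. Nr3c1 lost its vehicle call in 4 of 10 alternatives, and in 7c mice Nr2f6 lost it in 4 of 12 and Pparg in 3 of 12. With the replicate block, 21 members were called between the tissues in vehicle mice (14 higher in liver, 7 in kidney), 24 in 7c mice and 0 for 7c. In the fits of 7c against vehicle that block joins different mice. Deviations of same-numbered livers and kidneys had correlations of 0.02 to 0.26 in 7c and 0.01 to 0.17 in vehicle mice, with 7 of 10 above 0.1, and the 42 pairs of different numbers had at most 0.091. Of 10 livers, 8 correlated best with the kidney of their own number, a hint from the data that a number marks 1 mouse. The 7c and vehicle kidneys numbered 3, of different mice, had a higher value of 0.30, but within 1 tissue. The labels state no pairing, so the main fits between the tissues treated the libraries as independent. The replicate block is the alternative that pairs them. Depth limits Esr2, Nr4a3, Rorb, Hnf4g and Nr1i3 in the lower tissue.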
